A study of Mus musculus with 22 samples.

Results

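The neurotrophin system of the adult mouse choroid plexus (ChP) was described through 8 of the 33964 genes in the RNA-seq counts, namely the receptors *Ngfr*, *Ntrk2* and *Ntrk3*, the sorting receptor *Sort1*, the ligands *Bdnf*, *Ntf3* and *Ntf5*, and *Nrn1*, which encodes the neurite growth factor neuritin. These genes were taken by name, with earlier results of these data known, and each was represented by the transcript chosen by its total counts over all files, which is the only measured value that the choice of transcript used. The ChP is the epithelial tissue that makes cerebrospinal fluid, and the study asked how its gene expression depends on the homeoprotein gene *Otx2*.

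There were 14 pools in 7 groups of 2, lettered A and B. In the conditional model, S129 mice of 3 months that carried Otx2 lox/lox, vehicle controls included, received the recombinase protein Cre-Tat or vehicle into the lateral ventricles, and ChP of the lateral ventricle (LV) and of the fourth ventricle (4V) was taken 15 days later, from 5 Cre-Tat and 4 vehicle mice per pool. Cells that the protein did not reach keep both alleles, and the study screened these ChPs by qPCR for *Otx2* before pooling. In the constitutive model, the 4V ChP of B6D2 mice was labelled WT, Otx2 (+/-) or Otx2 (+/AA). The Otx2 (+/-) mice carry 1 knockout allele in all cells for life, WT and Otx2 (+/-) mice were 3 months old, and what the AA allele is and the age of its mice are not given in the sources used here. The models differ in strain, sequencing run and RNA input, which cannot be told apart from the model. Nothing states whether LV and 4V pools of 1 letter hold the same mice, and p-values measure only the spread between pools.

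Neurotrophins are secreted growth factors that keep neurons alive and shape their connections. They are made as precursors and bind Trk receptors, which are tyrosine kinases with a preferred ligand each, and the p75 receptor, which binds all of them. Precursor forms bind p75 together with sortilin, and the ChP can release such factors into the cerebrospinal fluid.

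The most abundant member, *Ntrk2*, encodes TrkB, the receptor of BDNF and of the *Ntf5* product, and its annotated transcripts encode receptors of different length. The files hold a short transcript of 6846 bases with 476 coding codons and a full-length one of 8744 bases with 821. They share 464 codons and then part, and the coding sequence around that point is shown because it separates the short receptor, which has no kinase, from the full-length one. Both lines are on the plus strand of chromosome 13 of GRCm38, 5′ to 3′, with the last 30 shared bases in lower case and the first 33 bases of each transcript's own coding sequence in capitals, starting at position 58932023 in the short and at 58985802 in the full-length transcript.
Ntrk2 short: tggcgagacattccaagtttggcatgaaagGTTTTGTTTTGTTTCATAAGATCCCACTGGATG
Ntrk2 full-length: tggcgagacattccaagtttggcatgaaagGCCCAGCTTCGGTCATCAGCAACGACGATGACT

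The labels were checked on *Otx2* first. Counts over the whole transcript went against the direction of a knockdown: the LV pools labelled vehicle had 386 and 470 CPM (counts scaled to library size) of *Otx2*, and the LV pools labelled Cre-Tat had 1236 and 1025 CPM, which is 1.41 higher on the log2 scale. The same difference was 1.64 in 4V and 1.53 between Otx2 (+/-) and WT. Counts per transcript do not show the deleted part on its own. From reads on an *Otx2* exon, the study reported a decrease with Cre-Tat in both ventricles and in the constitutive heterozygotes. Such exon counts are not among the data used here, so every direction below is that between libraries labelled as stated. *Ttr*, the transthyretin gene of ChP epithelium, was lower in the pools labelled Cre-Tat and Otx2 (+/-), with 177700 and 185500 CPM in vehicle LV, 94690 and 134600 CPM in Cre-Tat LV, 168300 and 138800 CPM in vehicle 4V, and 73850 and 61150 CPM in Cre-Tat 4V. In the constitutive model it had 147900 and 139200 CPM in WT and 76430 and 89920 CPM in Otx2 (+/-), and no pools of these pairs overlapped. A second point touches the conditional model. Of its 16 files, 14 carry another library number in their name than the sample they are attached to, and for 12 of these the group differs. Files were grouped by library number, because pairs of runs with the same number differed no more than counting error (chi-square per degree of freedom 1.00 to 1.03 in 8 pairs), while pairs as attached differed by 13.2 to 20.5. Values with the files as attached are given beside the results.

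Total counts were 22750019 to 50088408 per pool. Levels are CPM over all genes after TMM scaling, which removes differences in library size and composition between pools, and levels are compared between genes only per kilobase of transcript. The value of 3 counts, taken as the floor, was 0.12 to 0.28 CPM. In vehicle LV ChP, *Ntrk2* stood at 137 ± 3.54 CPM per kilobase (SD, n = 2), above *Nrn1* at 54.5 ± 7.64 and *Sort1* at 26.5 ± 3.95. *Ntf5* at 6.01 ± 0.277 and *Ngfr* at 5.92 ± 0.341 had overlapping pools, *Ntf3* followed at 1.18 ± 0.0648, and the pools of *Ntrk3* and *Bdnf*, at 0.0477 ± 0.0389 and 0.0247 ± 0.0170, also overlapped. In vehicle 4V ChP the order was *Ntrk2*, *Sort1*, *Ngfr*, *Ntf5*, *Ntf3* and then *Nrn1*, with no overlap between neighbours. *Ntrk2* was first and *Sort1* second in every 4V group.

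**Figure D1:**
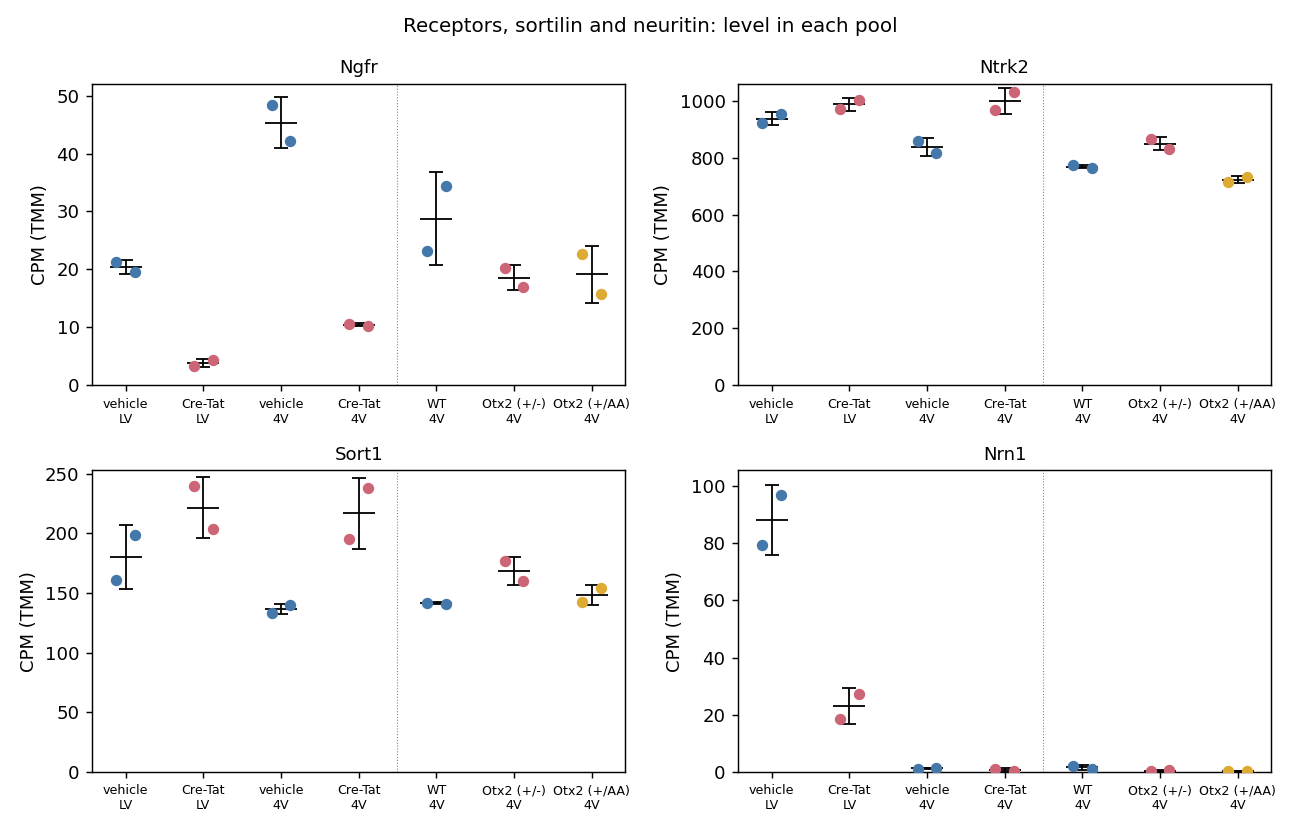
Level in CPM after TMM scaling (y axes, from 0) of *Ngfr*, *Ntrk2*, *Sort1* and *Nrn1* in each pool (points) of the 7 groups, with mean and SD of 2 pools as black bars and a dotted line between the conditional and the constitutive model. Blue marks vehicle and WT, red Cre-Tat and Otx2 (+/-), and yellow Otx2 (+/AA). *Ngfr* sits at 42.2 to 48.5 CPM in vehicle 4V and at 10.3 to 10.6 in Cre-Tat 4V, and *Nrn1* is above 3 CPM in LV groups only.

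*Ngfr* encodes p75, the receptor that binds every neurotrophin and works with Trk receptors or with sortilin. The gene lies on chromosome 11 of GRCm38 from 95568818 to 95587735, minus strand, and its 1 annotated transcript, of 6 exons, has no exon overlap with another gene. It was measured at 21.2 and 19.6 CPM in vehicle LV and at 3.33 and 4.36 CPM in Cre-Tat LV. In 4V it was at 48.5 and 42.2 CPM with vehicle and 10.6 and 10.3 CPM with Cre-Tat. Pools labelled Cre-Tat were thus below both vehicle pools in each ventricle, with log2 fold changes of -2.41 (SE 0.21) in LV and -2.12 (SE 0.16) in 4V, or 5.30-fold and 4.34-fold lower. These *Ngfr* values are a description without a test, since they were known when the gene was listed. Grouping the files as attached gave -1.21 and -0.88.

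In the constitutive model the *Ngfr* pools stood closer together, at 23.1 and 34.4 CPM in WT, 20.2 and 17.0 CPM in Otx2 (+/-), and 22.7 and 15.7 CPM in Otx2 (+/AA). Both mutant groups lay below both WT pools, with log2 fold changes of -0.63 (SE 0.20, adjusted p = 0.14) and -0.59 (SE 0.21, adjusted p = 0.36), neither past the threshold of 0.05 in edgeR's quasi-likelihood test. Without WT pool A they were -0.89 (adjusted p = 5.9e-04) and -0.85 (adjusted p = 0.0067), past it, and without WT pool B they were -0.32 and -0.28, not past it. Otx2 (+/-) and Otx2 (+/AA) pools overlapped, at a log2 difference of -0.043 (95% interval -0.47 to 0.38).

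*Ngfr* also differed between ventricles. Vehicle LV pools were lower than vehicle 4V pools by a log2 difference of -1.16 (SE 0.14, adjusted p = 1.8e-04), and Cre-Tat LV lower than Cre-Tat 4V by -1.44 (SE 0.23, adjusted p = 7.5e-04). As attached, the files gave 0.31 and -0.016. The responses to Cre-Tat in LV and 4V differed by -0.29 (95% interval -0.81 to 0.23), which was not past the threshold.

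Markers of the cells that could carry p75 were read beside it. In LV, the summed level of the 6 Schwann cell and neural crest markers was 13.1 to 26.6 CPM with vehicle and 23.1 to 30.4 CPM with Cre-Tat, and in 4V it was 9.97 to 15.1 and 13.2 to 13.9 CPM, so it was not lower in Cre-Tat pools. *Sox10* and *Foxd3*, transcription factors of that lineage, had no counts in any of the 4 conditional 4V pools, and the vehicle pools among these had the highest *Ngfr* levels of all 14. The 5 fibroblast markers summed to 483 to 508 CPM in vehicle 4V and 431 to 476 CPM in Cre-Tat 4V, where *Col1a2* rose and *Pdgfra* fell. The part of these cells in the *Ngfr* difference was not tested. In bulk tissue, fewer cells of a type and less RNA per cell cannot be told apart.

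The 200 bases printed for *Ngfr*, whose Cre-Tat pools lay below vehicle in both ventricles, were read from the RefSeq promoter table (GRCm38.p6, chr11:95587749-95587948, minus strand, 5′ to 3′). They are the first bases of the promoter window, farthest before the start, and leave out the nearest of the 250 bases searched below.
Ngfr upstream: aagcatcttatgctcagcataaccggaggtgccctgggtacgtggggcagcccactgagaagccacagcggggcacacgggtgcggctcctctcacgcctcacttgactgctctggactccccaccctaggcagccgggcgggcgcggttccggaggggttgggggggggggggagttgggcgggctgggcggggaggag
No base is in capitals, because the hexamer TAATCC, which OTX2 and other homeodomain proteins of its class bind, was searched on both strands of the 250 bases before each start and was found in 0 of 11 promoters listed for *Ngfr*, *Ntrk2*, *Bdnf* and *Ntf3*. It was found in 6.25% of all 32851 promoters in the table. *Nrn1*, *Sort1*, *Ntrk3* and *Ntf5* were not matched in it.

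*Ntrk2*, on chromosome 13 from 58806569 to 59133970, stayed within a narrow range, between 715 and 1031 CPM over the 14 pools, so that its highest pool was 1.44 times the lowest. It was at 921 and 955 CPM in vehicle LV and 971 and 1004 CPM in Cre-Tat LV. In 4V, vehicle pools had 860 and 816 CPM and Cre-Tat pools 968 and 1031 CPM. Cre-Tat pools were above both vehicle pools in each ventricle, but the log2 fold changes of 0.077 (95% interval -0.26 to 0.42) in LV and 0.26 (-0.060 to 0.58) in 4V were not past the threshold. The attached grouping gave 0.042 and 0.041, both past the threshold.

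In the constitutive model *Ntrk2* had 773 and 764 CPM in WT, 865 and 832 CPM in Otx2 (+/-), and 715 and 732 CPM in Otx2 (+/AA). The 3 groups did not overlap, with log2 fold changes against WT of 0.15 (95% interval -0.12 to 0.41) and -0.097 (-0.37 to 0.17; 0.022 with total-count scaling), neither past the threshold. LV and 4V differed by 0.16 (-0.099 to 0.42) with vehicle and by -0.018 (-0.42 to 0.39) with Cre-Tat, and the first changed sign with total-count scaling (-0.033) and the second with summed transcripts (0.031). Astrocytes express the short TrkB, and the 5 astrocyte markers summed to 34.9 to 54.4 CPM in vehicle 4V and 72.3 to 78.5 CPM in Cre-Tat 4V. The same sum was 53.7 to 75.7 CPM in vehicle LV and 93.2 to 118 CPM in Cre-Tat LV. In the constitutive model it was 50.1 to 57.6 CPM in WT, 91.4 to 146 CPM in Otx2 (+/-) and 50.55 to 82.3 CPM in Otx2 (+/AA). The part of astrocytes in the *Ntrk2* level was not tested.

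The short *Ntrk2* transcript, whose own coding start is printed above, had more counts than the full-length one in every pool, with a ratio of 1.57 to 2.00 and a median of 1.75. They share 1737 bases, and how reads in shared bases were counted is not stated. Even if every count of the full-length transcript lay in the shared bases, 101024 of the 234201 counts of the short one over all files would remain for bases outside it. The ratio was 1.57 and 1.81 in vehicle LV, 1.73 and 1.64 in Cre-Tat LV, 1.59 and 1.76 in vehicle 4V, and 1.70 and 1.93 in Cre-Tat 4V, so that these groups overlapped in pairs. Tested per transcript in Cre-Tat against vehicle 4V, the short form had a log2 fold change of 0.27 (SE 0.14) and the full-length form of 0.15 (SE 0.14), neither past the threshold.

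*Ntrk3*, the NT-3 receptor TrkC, on chromosome 7 from 78175959 to 78738012, was near the floor when its transcript length is considered, with 6 to 54 counts per pool over 19703 bases. Its level was 0.365 to 2.48 CPM, with the highest value in Cre-Tat LV pool B and 0.803 CPM in pool A of the same group. It did not pass the threshold in any of the 9 comparisons, but without Cre-Tat LV pool A, the lower of its group, it passed between Cre-Tat LV and 4V.

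*Sort1*, on chromosome 3 from 108284082 to 108361511, encodes sortilin, which sorts proneurotrophins inside the cell and joins p75 at the surface. It was at 133 and 140 CPM in vehicle 4V and at 196 and 238 CPM in Cre-Tat 4V. Both Cre-Tat 4V pools were above the vehicle pools, and *Sort1* rose by a log2 fold change of 0.67 (SE 0.14, adjusted p = 0.0039), or 1.59-fold. In LV the pools had 161 and 199 CPM with vehicle and 240 and 204 CPM with Cre-Tat, also without overlap, at a log2 fold change of 0.30 (SE 0.17, adjusted p = 0.49). The LV and 4V responses differed by -0.36 (95% interval -0.84 to 0.11), not past the threshold. The attached grouping gave 0.27 in LV and -0.0090 in 4V.

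*Sort1* in WT pools was 142 and 141 CPM, in Otx2 (+/-) 176 and 160 CPM, and in Otx2 (+/AA) 143 and 154 CPM. Otx2 (+/-) pools were above WT pools, at a log2 fold change of 0.25 (95% interval -0.0064 to 0.51, adjusted p = 0.28). Otx2 (+/AA) was at 0.061 (-0.21 to 0.33). LV and 4V differed by 0.39 (SE 0.13, adjusted p = 0.076) with vehicle, which passed without vehicle LV pool A (0.53, adjusted p = 0.014), and by 0.032 (95% interval -0.36 to 0.42) with Cre-Tat, which was -0.13 with total-count scaling. A second *Sort1* transcript, with 858 coding codons against the 825 of the main one, had 25.2% to 29.7% of its counts and shares 6728 bases with it. In Cre-Tat against vehicle 4V, the main transcript rose by 0.68 (SE 0.14, adjusted p = 0.0047) and the second by 0.61 (SE 0.14, adjusted p = 0.011). *Gm12523*, on the other strand of *Sort1* exons, had no counts in any pool. Leukocytes also carry sortilin, and the 5 macrophage and leukocyte markers summed to 30.1 CPM in both vehicle 4V pools and to 51.9 to 64.9 CPM in Cre-Tat 4V. Of these 5 markers 4 rose in 4V, and 3 did in DESeq2, where 10.7% of all genes passed in edgeR. In LV the sum was 42.1 to 47.6 CPM with vehicle and 65.5 to 71.9 CPM with Cre-Tat. There 1 of the 5 passed as higher in edgeR and 1 in DESeq2, where 3.24% of all genes passed, and 5 had an unadjusted p under 0.05. The part of these markers in the *Sort1* result was not tested.

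Among the ligands, *Bdnf*, on chromosome 2 from 109674700 to 109727007, was at the limit of detection. It had 0 to 14 counts per pool and 37 over all files, never passed the filter on low counts, and was not tested. Its highest value, 14 counts or 0.562 CPM in Cre-Tat LV pool A, stood beside 1 count in pool B. Its 10 transcripts held 34 to 37 counts each and overlap over at least 3626 bases, so that the same reads can stand on several of them.

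*Ntf3*, which encodes NT-3, on chromosome 6 from 126101412 to 126166910, was low but detected in every pool, at 0.707 to 2.81 CPM with a median of 1.78. Its pools of 1 group lay as far apart as any of the groups, with 1.04 and 2.81 CPM in WT and 0.707 and 2.52 CPM in Otx2 (+/-). It did not pass the threshold in any of the 9 comparisons.

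*Ntf5*, which encodes NT-4, a ligand of TrkB and p75, on chromosome 7 from 45413695 to 45417179, was the most abundant ligand per kilobase in every group. It was at 11.4 and 12.2 CPM in vehicle LV and 6.63 and 8.21 CPM in Cre-Tat LV. In 4V it had 10.97 and 9.05 CPM with vehicle and 6.03 and 6.15 CPM with Cre-Tat. Cre-Tat pools lay below both vehicle pools in each ventricle, with log2 fold changes of -0.67 (SE 0.20, adjusted p = 0.099) in LV and -0.72 (SE 0.21, adjusted p = 0.032) in 4V. The fall in LV passed without Cre-Tat pool B (-0.82, adjusted p = 0.045). The fall in 4V passed the threshold, but not with DESeq2 (adjusted p = 0.11), with total-count scaling (0.081), with summed transcripts (0.099) or without vehicle pool A (log2 fold change -0.56, adjusted p = 0.32). The attached grouping gave 0.12 in LV and 0.50 in 4V.

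*Ntf5* was at 16.9 and 18.4 CPM in WT, 10.2 and 12.1 CPM in Otx2 (+/-), and 15.01 and 16.0 CPM in Otx2 (+/AA). Otx2 (+/-) pools were below all others of that model, at a log2 fold change against WT of -0.66 (SE 0.16, adjusted p = 0.064), not past the threshold over genes, which it passed without WT pool A (adjusted p = 0.026) or Otx2 (+/-) pool B (adjusted p = 0.047). Counted per transcript, with another set of features, its 1 transcript had -0.65 (SE 0.16, adjusted p = 0.045). Otx2 (+/AA) against WT was -0.20 (95% interval -0.54 to 0.15), and Otx2 (+/-) against Otx2 (+/AA) was -0.47 (-0.85 to -0.095, adjusted p = 0.22). LV and 4V differed by 0.23 (-0.16 to 0.62) with vehicle and 0.28 (-0.20 to 0.76) with Cre-Tat.

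**Figure D2:**
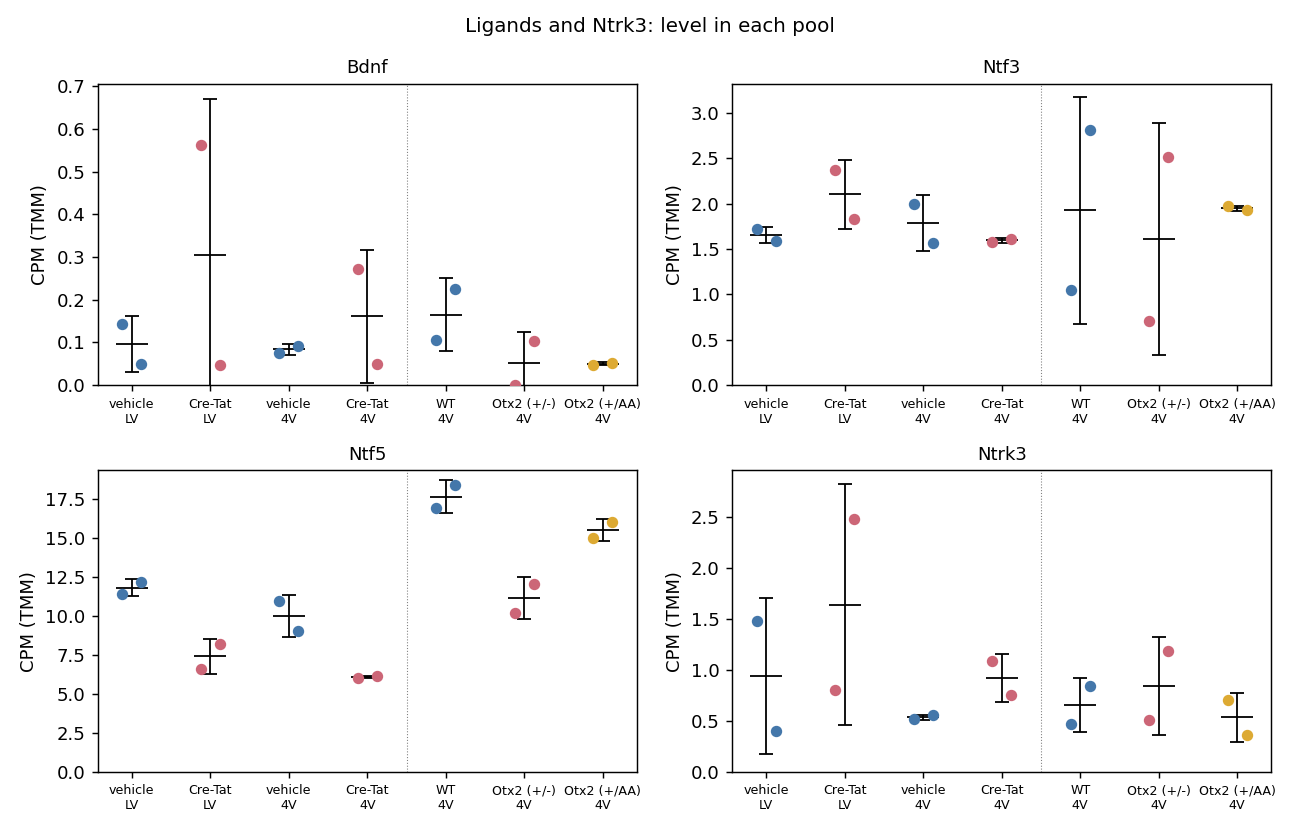
Level in CPM after TMM scaling (y axes, from 0) of the ligands *Bdnf*, *Ntf3* and *Ntf5* and of the receptor *Ntrk3* in each pool (points), with mean and SD of 2 pools as black bars, cut at 0, and blue for controls, red for Cre-Tat and Otx2 (+/-), yellow for Otx2 (+/AA). *Ntf5* is at 6.03 to 8.21 CPM in the 4 Cre-Tat pools and at 9.05 to 12.2 in the 4 vehicle pools, while *Bdnf* stays below 1 CPM.

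*Nrn1* encodes neuritin, a membrane-anchored protein that BDNF and neural activity induce in neurons and that promotes neurite growth. It lies on chromosome 13 from 36725361 to 36735131, minus strand, and was an LV gene in these pools: 79.4 and 96.9 CPM in vehicle LV against 1.04 and 1.29 CPM in vehicle 4V. The log2 difference was 6.24 (SE 0.20, adjusted p = 1.2e-09). In the pools labelled Cre-Tat, LV had 18.5 and 27.4 CPM and 4V had 1.09 and 0.151 CPM, a log2 difference of 5.23 (SE 0.40), which was 7.19 without Cre-Tat 4V pool A and 4.39 without pool B. With Cre-Tat the filter on low counts was met through the LV pools, so a higher LV level was favoured in advance. The Cre-Tat value is therefore a description without a test. As attached, the files gave 0.94 with vehicle and -0.39 with Cre-Tat.

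Cre-Tat LV pools of *Nrn1* lay below both vehicle LV pools, by a log2 fold change of -1.94 (SE 0.20), or 3.84-fold. In 4V, with 3 to 20 counts per pool, the log2 fold change was -0.91 (95% interval -2.26 to 0.44), and it was -2.88 without Cre-Tat pool A and -0.078 without pool B. These Cre-Tat values of *Nrn1* are a description without a test, as for *Ngfr*, and with the files as attached they were 5.44 and 6.76. The LV and 4V responses differed by -1.02 (-2.43 to 0.40).

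In the constitutive model *Nrn1* had 42 and 16 counts in WT, 3 and 11 in Otx2 (+/-), and 6 and 2 in Otx2 (+/AA). Mutant pools lay below WT pools at a few counts each, with log2 fold changes of -2.10 (SE 0.66, adjusted p = 0.14) and -2.95 (SE 0.66, adjusted p = 0.087), neither past the threshold. Without WT pool B they were -2.60 and -3.45, and without WT pool A they were -1.32 and -2.17. The filter on low counts was met here through the WT pools, so a fall was favoured in advance. Otx2 (+/-) and Otx2 (+/AA) were not compared, since *Nrn1* did not pass the filter there.

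*Nrn1* exons overlap *Fars2*, a mitochondrial tRNA synthetase gene, on the other strand, and the strand setting of the counting is not given in the sources used here. *Fars2* was at 104 to 110 CPM in vehicle LV and 95.1 to 100 CPM in vehicle 4V, with a log2 difference of 0.13 (SE 0.12), and at 0.018 (SE 0.16) for Cre-Tat in LV. The 6 neuron markers summed to 18.1 to 19.2 CPM in vehicle LV and 12.5 to 23.3 CPM in vehicle 4V, with overlap, and to 23.6 to 27.1 CPM in Cre-Tat LV.

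**Figure D3:**
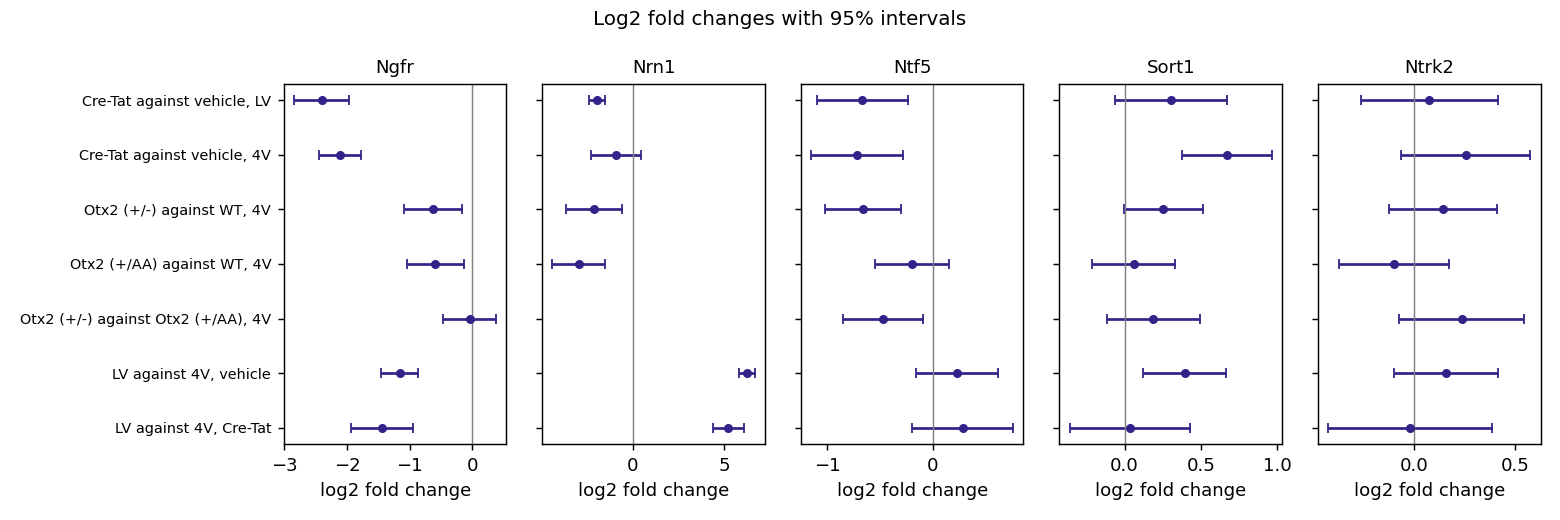
Log2 fold changes (x axes, with a different range in each panel) of 5 members in the 7 comparisons (y axis), as points with 95% intervals from edgeR's quasi-likelihood fit, with no point for *Nrn1* where it was not tested. *Ngfr* lies left of 0 in both Cre-Tat comparisons, *Nrn1* lies at 5.23 and 6.24 in the LV against 4V comparisons, and the *Ntrk2* intervals all contain 0.

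Read over comparisons, the members called stood beside these shares of all genes called. In Cre-Tat against vehicle LV, 2 of 7 members tested passed (*Ngfr* and *Nrn1*, both lower), where 3.24% of 14991 genes passed. In 4V, 3 of 7 passed (*Ngfr* and *Ntf5* lower, *Sort1* higher), where 10.7% of 14537 genes passed. Since the list was drawn with Cre-Tat results known, nothing is read from these counts. Transcripts passed in 7.59% of 51129 tested in 4V and in 3.55% of 50860 tested in Otx2 (+/-) against WT.

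In Otx2 (+/-) against WT, 0 of 7 members passed in edgeR and 0 in DESeq2, with 3 at an unadjusted p under 0.05 (*Ngfr*, *Ntf5* and *Nrn1*), where 3.54% of genes passed. In Otx2 (+/AA) against WT, 0 of 7 passed in edgeR and 0 in DESeq2, with 2 at an unadjusted p under 0.05 (*Ngfr* and *Nrn1*), where 0.345% of genes passed. Between the 2 mutant groups 0 of 6 passed in either tool, with 1 (*Ntf5*) at an unadjusted p under 0.05, against 2.7% of genes. In LV against 4V, 2 of 7 passed with vehicle and 2 of 7 with Cre-Tat, each time *Ngfr* lower and *Nrn1* higher in LV, where 7.52% and 5.87% of genes passed. With Cre-Tat, *Nrn1* met the filter on low counts through the LV pools, so its call there is not read as a test.

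The difference between the LV and 4V responses to Cre-Tat passed for 0 of 7 members in edgeR and in DESeq2, with 0 at an unadjusted p under 0.05 and 0.00643% of genes. The difference between the conditional and the constitutive response in 4V passed for 1.61% of genes. For *Ngfr* it was -1.50, or -1.39 without vehicle 4V pool A, a description without a test, since it contains the Cre-Tat difference known when the gene was listed. For *Sort1* it was 0.40 (95% interval 0.016 to 0.79, adjusted p = 0.36), and for *Nrn1* 1.17 (-1.17 to 3.51).

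Relatives of the members were read from 5 lists. Of the 8 other neurotrophin, Trk and sortilin family genes, 5 were tested in LV and 2 rose there, *Sorl1* and *Sorcs2*, both sorting receptors of the sortilin family, where 3.24% of all genes passed. Both were known from the study of these samples when the list was drawn, so the count is not independent evidence of their direction. Their values are therefore a description without a test, as for *Ngfr*. *Sorcs2*, a co-receptor of p75 for precursor ligands, was at 7.02 and 7.26 CPM in vehicle LV and 18.2 and 23.1 CPM in Cre-Tat LV, and at 15.4 and 13.2 against 35.6 and 36.8 CPM in 4V. It was higher by log2 fold changes of 1.53 (SE 0.19) in LV, 1.34 (SE 0.16) in 4V and 1.18 (SE 0.16) in Otx2 (+/-) against WT. *Sorl1*, which encodes SORLA, was higher by 1.05 (SE 0.17), 1.09 (SE 0.14) and 1.49 (SE 0.20) in the same order. As attached, the files gave -1.05 and -0.87 for *Sorcs2* and -0.22 and -0.75 for *Sorl1* in LV and 4V.

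Neither *Sorcs2* nor *Sorl1* passed in Otx2 (+/AA) against WT, where 0 of 4 list genes tested did in either tool and 0 had an unadjusted p under 0.05. Of all genes, 0.345% passed there. The list's median log2 fold change was 0.40 in LV, 0.099 in 4V and 1.18 in Otx2 (+/-) against WT, beside 0.0044, 0.0061 and -0.00073 over all genes tested.

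**Figure D4:**
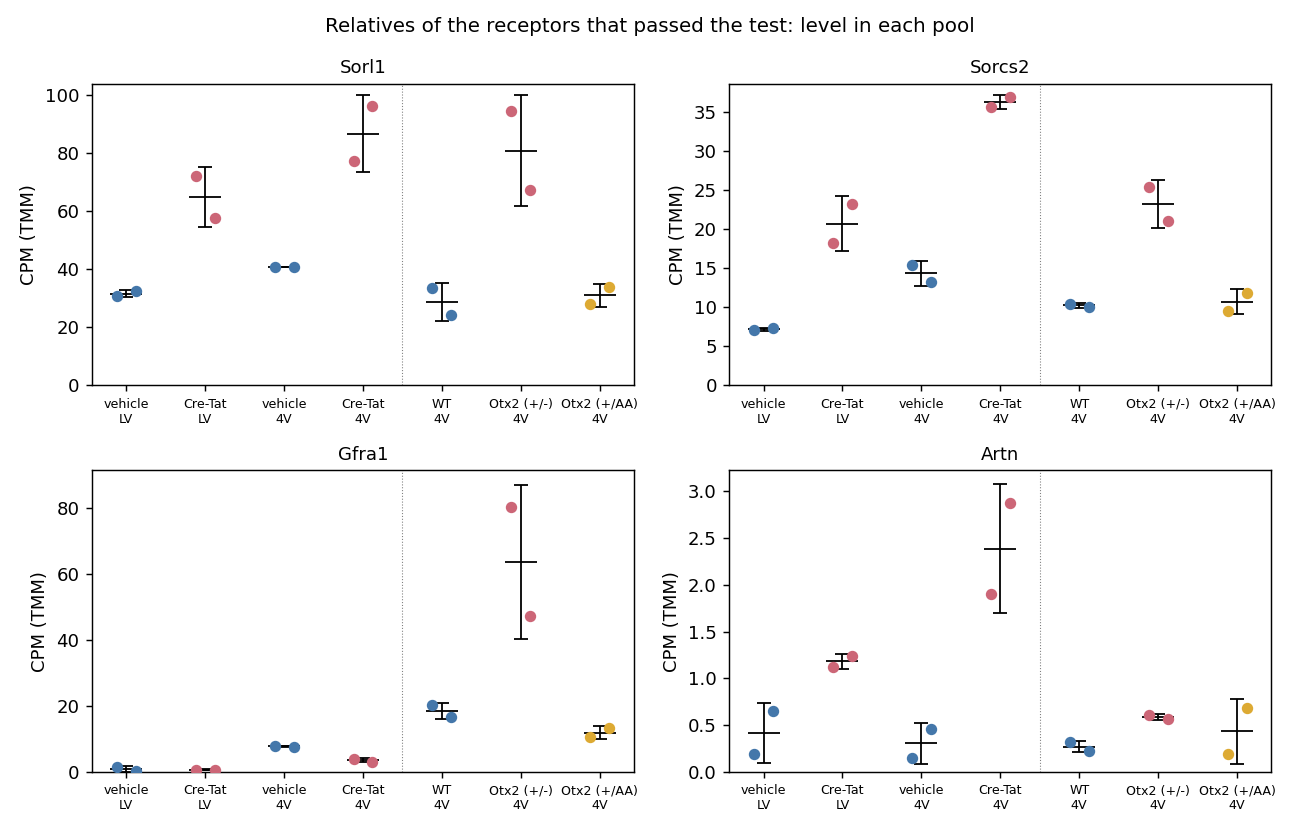
Level in CPM after TMM scaling (y axes, from 0) of *Sorl1*, *Sorcs2*, *Gfra1* and *Artn* in each pool (points), with mean and SD of 2 pools as black bars and blue for controls, red for Cre-Tat and Otx2 (+/-), yellow for Otx2 (+/AA). *Sorcs2* is at 18.2 to 36.8 CPM in the 4 Cre-Tat pools and at 7.02 to 15.4 in the 4 vehicle pools, and *Gfra1* reaches 47.1 and 80.2 CPM in Otx2 (+/-).

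Of the 13 genes that process neurotrophins or p75, such as *Furin*, *Adam17* and the gamma-secretase subunits, 12 were tested in each of these 4 comparisons and 0 passed in edgeR or DESeq2. Of all genes, 3.24% passed in LV, 10.7% in 4V, 3.54% in Otx2 (+/-) and 0.345% in Otx2 (+/AA). For lists this small, 0 is therefore not read as a lack of response. At an unadjusted p under 0.05 there were 1, 4, 2 and 0, and the list medians were -0.18 in LV, -0.15 in 4V, -0.085 in Otx2 (+/-) and -0.11 in Otx2 (+/AA). Of the 18 Trk adaptor genes, 17 or 18 were tested and 0 passed in either tool, with 1, 5, 3 and 0 at an unadjusted p under 0.05 and medians of 0.11, 0.26, 0.17 and 0.044.

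Of the 12 p75 partners and adaptors, 0 of 12 passed in LV in either tool, with 0 at an unadjusted p under 0.05, where 3.24% of all genes passed. In 4V 1 of 11 tested passed, where 10.7% of all genes did, and in Otx2 (+/-) 1 of 11, where 3.54% did. *Irak1*, a kinase that p75 shares with Toll-like receptors, rose in Cre-Tat 4V by 0.54 (SE 0.14, adjusted p = 0.020), which was -0.19 with the files as attached, and the call was lost without Cre-Tat pool B (0.096), without vehicle pool A (0.28) and with summed transcripts (0.057). *Bex3*, which encodes the p75-associated protein NADE, fell in Otx2 (+/-) against WT by 0.52 on the log2 scale (SE 0.11, adjusted p = 0.041), a call lost in 5 of 11 alternatives. In Otx2 (+/AA) against WT 0 of 11 passed in either tool, with 2 at an unadjusted p under 0.05, where 0.345% of all genes passed. The list medians were -0.049 in LV, 0.079 in 4V, 0.0094 in Otx2 (+/-) and -0.045 in Otx2 (+/AA).

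Of 15 other neurotrophic factor and receptor genes, 0 of 11 tested passed in LV in either tool, with 2 at an unadjusted p under 0.05, where 3.24% of all genes passed. In 4V 2 of 10 tested passed, where 10.7% of all genes did, and in Otx2 (+/-) 1 of 11, where 3.54% did. *Gfra1*, the GDNF co-receptor, had 7.86 and 7.66 CPM in vehicle 4V, 3.91 and 3.07 CPM in Cre-Tat 4V, 20.1 and 16.7 CPM in WT and 80.2 and 47.1 CPM in Otx2 (+/-). It fell with Cre-Tat by 1.15 on the log2 scale (SE 0.25, adjusted p = 0.0048; -3.51 with the files as attached), a call lost when all groups of the run were fitted together (adjusted p = 0.17), and rose in Otx2 (+/-) by 1.79 (SE 0.24, adjusted p = 0.0049). *Artn*, which encodes the GDNF family ligand artemin, had 0.148 CPM, under the floor of 3 counts, and 0.462 CPM in vehicle 4V and 1.90 and 2.87 CPM in Cre-Tat 4V. Its log2 fold change was 3.01 (SE 0.56), and -1.07 with the files as attached. *Artn* met the filter on low counts through the Cre-Tat pools, so only a rise could be called, and the value is a description without a test. Its size depends on the vehicle pools, at 2.37 without pool A and 3.95 without pool B. In Otx2 (+/AA) against WT 0 of 10 passed in either tool, with 2 at an unadjusted p under 0.05, where 0.345% of all genes passed. The list medians were -0.13, 0.18, 0.0025 and -0.30 in the same order of comparisons.

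The tissue label was checked on 8 markers of choroid plexus epithelium, which were present in every pool and summed to 219800 to 228300 CPM in vehicle LV. Their sum, most of which is *Ttr*, moved with the labels. It was 122700 to 163600 CPM in Cre-Tat LV, 182500 to 216700 in vehicle 4V and 86330 to 98150 in Cre-Tat 4V. In the constitutive model it was 187600 to 197900 in WT, 124900 to 133100 in Otx2 (+/-) and 153600 to 157100 in Otx2 (+/AA). The markers did not all follow the sum, as *Otx2* was higher in Cre-Tat LV. The other markers were lower in both Cre-Tat LV pools than in both vehicle LV pools. Of the 8, 3 passed there as lower in edgeR (*Aqp1*, *Kcne2* and *Enpp2*), where 3.24% of all genes passed. DESeq2 called 6 of the 8 there, with *Ttr* and *Kl* added and *Otx2* included, and 6 had an unadjusted p under 0.05. Against WT, 2 passed as lower in Otx2 (+/-) (*Ttr* and *Folr1*), where 3.54% passed, and 0 in Otx2 (+/AA), where 0.345% passed. *Otx2* rose in Cre-Tat LV and in Otx2 (+/-). In Cre-Tat 4V 7 of the 8 markers fell and *Otx2* rose. Astrocyte markers rose in 3 of 5 and ependymal markers in 2 of 4 tested in the same comparison, where 10.7% of all genes passed, and in LV the counts were 2 of 5 and 2 of 4, where 3.24% passed. Of the other lists, *Snap25* (neuron) rose in Cre-Tat LV, *Syt1* (neuron) fell and *Plvap* (endothelium) rose in Cre-Tat 4V, *Cnp* (oligodendrocyte) rose in both, and of 5 mural markers 0 passed in edgeR or DESeq2 in either ventricle, with 1 at an unadjusted p under 0.05 in LV and 0 in 4V. In Otx2 (+/-) against WT, *Aqp4*, *Slc1a3*, *S100b*, *Col1a2* and *Mrc1* rose among the markers of other cell types, where 3.54% of all genes passed. The part of these shifts in the results of the members was not tested.

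**Figure D5:**
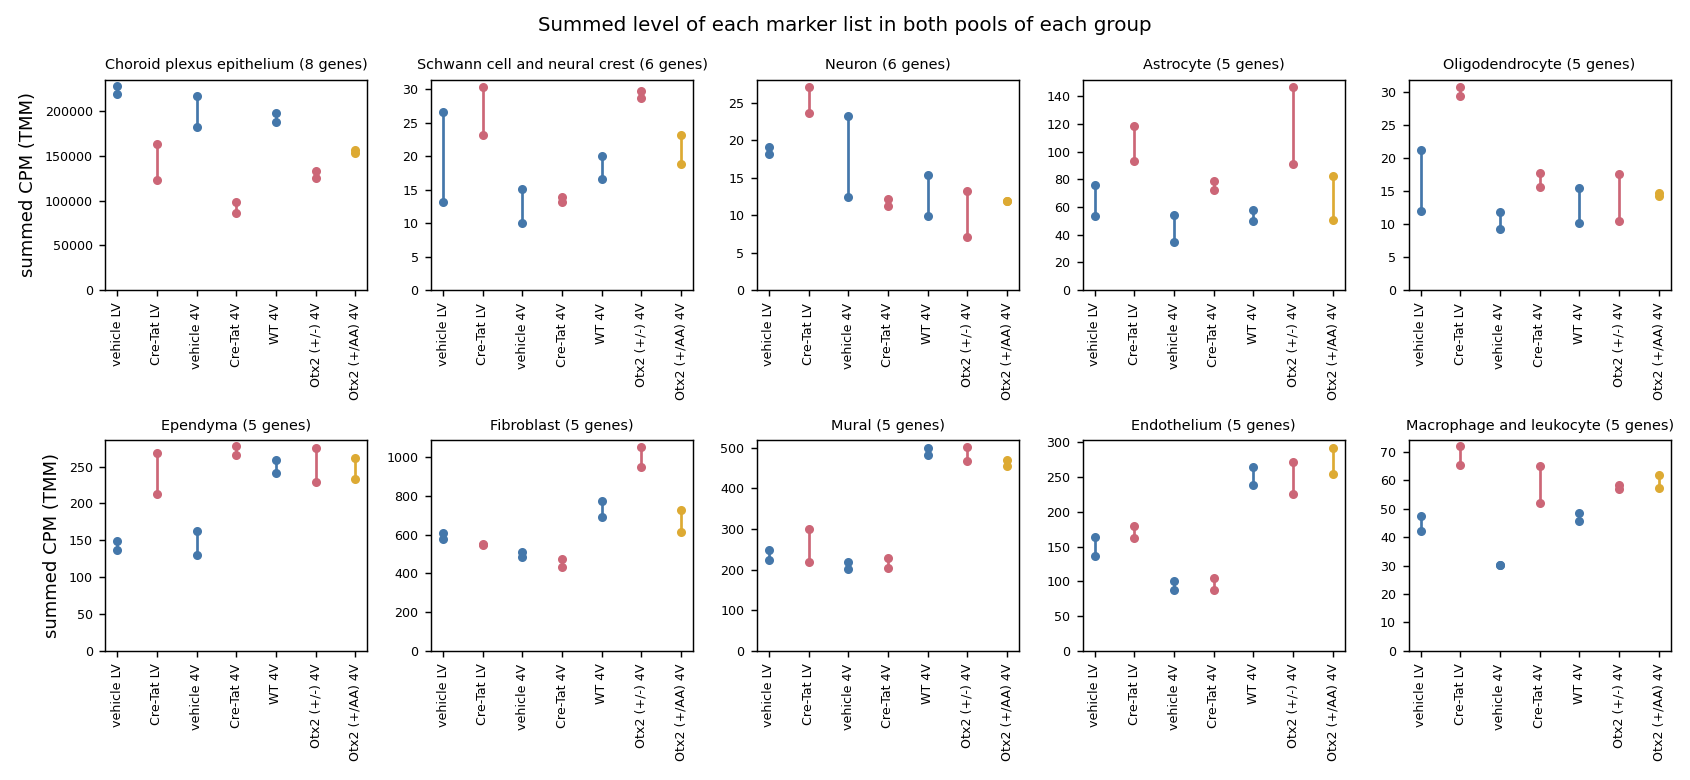
Summed CPM after TMM scaling (y axes, from 0, with a different range in each panel) of 10 lists of cell type markers, as a point for each of the 2 pools joined by a line, in the 7 groups, in blue for controls, red for Cre-Tat and Otx2 (+/-) and yellow for Otx2 (+/AA). Epithelial markers are at 86330 to 98150 CPM in Cre-Tat 4V against 182500 to 216700 in vehicle 4V, and the sum of Schwann cell and neural crest markers stays below 31 CPM.

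Genes whose pattern over the 14 pools was most like that of a member were ranked by Pearson's r of log2 CPM among 11699 genes with a mean of at least 50 counts per pool. For *Ngfr* these were *Gm20501* (r = 0.914), *Slc4a5* (0.907), *Mier2* (0.902), *Pip5k1b* (0.894) and *Dner* (0.890). For *Nrn1* they were *Fn3krp* (0.954), *Gpr146* (0.949), *Cgrrf1* (0.930), *Ano3* (0.919) and *Crtap* (0.914), and *Ano3*, a scramblase gene, was at 6.59 to 10.1 CPM in the LV pools and 0.627 to 1.56 CPM in the 4V pools. For *Ntrk2* the first 4 were *Wee1* (0.963), *Plin4* (0.954), *Matn2* (0.945) and *Max* (0.935). The pools share group, strain and sequencing run, so these values describe likeness only.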

How the data were processed

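Authors' steps. RNA of pooled ChP was sequenced as 50 base reads on an Illumina sequencer. Per the labels, ribosomal RNA was depleted and libraries were strand-specific, while the study's methods name PolyA+ purification. The submitters' processing notes name bcl2fastq 1.8.4, Bowtie 0.12.9, SAMtools, HTSeq 0.5.3, DESeq 1.8.3 and mm10, and the annotation release and strand setting are not given in the sources used here. The deposited files hold raw counts per Ensembl transcript, 95533 in each, not normalized.

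Computed here. Technical runs of a pool were summed. GENCODE vM21 gave symbols for 82807 transcripts with 89.5% of counts, and the transcript with most counts stood for each gene. Each comparison was fitted on its own groups with edgeR 4.0.16 (R 4.3.3; TMM, filterByExpr, quasi-likelihood test, Benjamini-Hochberg adjustment over all genes, threshold 0.05). Standard errors are the log2 fold change over the root of F. The fit was tested on simulated data. Alternatives were DESeq2 1.42.0, its size factors, total counts, other filters, summed transcripts, a pool block, all groups of a run, leaving out each pool, and the files as attached. The 8 members, the gene lists and the tests were chosen with earlier results of these data known. Every member was named, and of each list at most the 4 genes with the lowest adjusted p that passed in a comparison with controls. Sequences came from RefSeq and GENCODE. Depth was 22750019 to 50088408 counts per pool, and the floor of 3 counts covers counting error only. A few genes that this rule or the lists hold are not reported here by name.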

Additional observations from a re-analysis of the deposited data

Results flagged for a closer look

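The Cre-Tat and Otx2 (+/-) responses of *Ngfr* in 4V differed by an interaction of -1.50 on the log2 scale (SE 0.26, 95% interval -2.06 to -0.94), with a log2 fold change of -2.12 between the pools labelled Cre-Tat and vehicle and of -0.63 between those labelled Otx2 (+/-) and WT. The Cre-Tat difference was known when *Ngfr* was listed, so this is a description without a test. Leaving out 1 pool at a time gave -1.81 to -1.23. With the files as attached it was -0.27. Strain, sequencing run and RNA input differ between the models and cannot be told apart from the way *Otx2* was altered.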

How the results depend on the processing

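With the files as attached, where each pool mixes 2 libraries, 4 members passed in Cre-Tat against vehicle LV, 5 in 4V, 3 for the LV against 4V response and 2 for the conditional against constitutive response, and directions reversed for *Nrn1* (5.44 in LV, 6.76 in 4V, -0.39 between Cre-Tat ventricles), *Ntf5* (0.12 in LV, 0.50 in 4V, -0.20 between Cre-Tat ventricles), *Sort1* (-0.0090 in 4V, -0.25 between vehicle ventricles, 0.28 for the LV against 4V response and -0.27 for the conditional against constitutive response), *Ngfr* (0.31) and *Ntrk2* (-0.040), both between vehicle ventricles. Near 0, *Ntrk2* reversed with total counts in Otx2 (+/AA) against WT (0.022) and between vehicle ventricles (-0.033) and with summed transcripts between Cre-Tat ventricles (0.031), and *Sort1* with total counts between Cre-Tat ventricles (-0.13). Total counts moved the median of all genes by -0.19 to 0.17. In Otx2 (+/-) against WT 1 member passed with all groups of the run in 1 fit, and in Otx2 (+/AA) against WT 2 passed with no filter. The cause of these changes was not tested.

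Leaving out 1 pool at a time, with the lone pool of a group assumed to vary like the others, 0 to 2 members passed in Otx2 (+/-) against WT, 0 to 1 in Otx2 (+/AA) against WT and 0 to 1 for the conditional against constitutive response. Log2 values that changed sign ranged from -0.29 to 0.25 (*Ngfr*, Otx2 (+/-) against Otx2 (+/AA)), -0.062 to 0.029 (*Ntrk2*) and -0.10 to 0.18 (*Sort1*) between Cre-Tat ventricles, and for *Nrn1* from -1.86 to 0.95 (LV against 4V response) and -0.79 to 2.36 (conditional against constitutive response).

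Pools of 1 letter share only a letter: their deviations correlated at -0.13 in LV, 0.15 in 4V, 0.36 in Otx2 (+/-) against WT and 0.064 to 0.079 elsewhere. With the letter as a replicate block, 3 members passed in Otx2 (+/-) against WT (*Ngfr*, *Nrn1*, *Ntf5*), 2 in Otx2 (+/AA) against WT (*Ngfr*, *Nrn1*) 4 in Cre-Tat against vehicle 4V (*Ntrk2* added) and 3 between vehicle ventricles (*Sort1* added), while genes past it numbered 3116 in place of 1554 in 4V, 2522 in place of 515 and 547 in place of 50 against WT, and 2268 in place of 1094 between vehicle ventricles. No other call of a member changed with the block. With the letters crossed in LV, chosen after seeing the data, 3 members and 997 genes passed.

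Levels per kilobase in vehicle LV with summed transcripts were 219 CPM for *Ntrk2*, 70.7 for *Nrn1*, 34.3 for *Sort1*, 2.25 for *Ntf3*, 0.247 for *Bdnf* and 0.129 for *Ntrk3*. DESeq2 called 122 genes in Otx2 (+/AA) against WT, where edgeR called 50, and no filter 390. For the LV against 4V response DESeq2 called 5, edgeR 1 and no filter 31, and for the conditional against constitutive response 378, 247 and 626. Without a filter, 872 genes passed in LV (486 with it), 1839 between vehicle ventricles (1094) and 1349 between Cre-Tat ventricles (886, and 1539 with total counts). With the files as attached, 6705 genes passed in LV and 8742 in 4V. With 2 pools a group, low members (*Bdnf*, *Ntrk3*, *Ntf3*, and *Nrn1* in 4V) are limited by counting error.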
